A study of Mus musculus with 2 samples.

Results

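Interferon-stimulated genes, the transcripts that cells switch on when they sense interferon, were followed in cultured osteoblasts of newborn mice through a list of 44 genes. A member counted as measured when the array carried a probe set whose annotation names that gene and no other, which held for 40 of the 44, out of 12393 genes measured in all. They were divided into 3 groups by role, namely 26 type I antiviral effectors and RNA sensors, 6 GTPases known for their response to interferon gamma, and 8 receptors and signalling factors. The cells were calvarial osteoprogenitors of mice aged 4 to 5 days on the C57Bl/6 strain, digested from the skull vault and cultured in medium with fetal bovine serum. One array was hybridised with RNA of cells labelled Col1-Dlk1, from mice with a Dlk1 transgene named for type I collagen, which overexpress Dlk1, a transmembrane regulator of progenitor differentiation. The other held cells labelled wild type, from littermates without the transgene. Each array holds RNA of 3 combined cultures, so there is 1 sample per genotype and no replicate. No p-value, standard error or test is given, and every difference compares these arrays and not the genotypes. The Col1-Dlk1 cells were sorted by flow cytometry to enrich those positive for Dlk1. The sources used here do not say whether the wild-type cells were sorted. No interferon was added to either culture, as far as the protocols say.

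Type I interferons bind the receptor of IFNAR1 and IFNAR2, and the kinases JAK1 and TYK2 then act through a complex with STAT2 and IRF9 that binds the interferon-stimulated response element (ISRE) in promoters. Interferon gamma binds IFNGR1 and IFNGR2, and its signal acts at the gamma-activated site (GAS) and induces IRF1. The induced proteins block viral replication or, in the case of the immunity-related GTPases, attack the vacuoles of intracellular parasites. In bone, interferon gamma and interferon beta are known for restraining osteoclast formation.

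Values are probe-set intensities on the authors' linear scale. Differences are log2(intensity + 10.96) on the array labelled Col1-Dlk1 minus the same on the array labelled wild type, where 10.96 is the 25th percentile of all values. A gene with several probe sets is given as their mean on that log2 scale, turned back to an intensity. A gene passed the level threshold when its higher value reached 42.8, the median of all values, and a call of higher or lower also required a difference of 2-fold or more. Folds with the pseudocount understate the differences of dim genes. The only repeat measurement is technical: the differences from 2 probe sets of the same gene were separated by a median of 0.41 log2 units (12821 pairs), and 10% of pairs were more than 1.20 apart. Among the members this median gap was 0.65, over 19 pairs, and the 90th percentile of the gaps was 1.50. Differences of 1.50 or less are therefore within the gaps seen between probe sets of a member. Among the members called below, this holds for Igtp (-1.34), Irgm1 (-1.40), Irgm2 (-1.35), Gbp3 (-1.37) and Ifi30 (1.04).

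The label of the transgenic array was at odds with its own gene. The probe set of Dlk1 had an intensity of 26.5 on the array labelled Col1-Dlk1, compared with 306 on that labelled wild type, a ratio of 11.5. Whether this probe set reads the transgene, and whether the labels of the arrays were exchanged, was not tested. All directions that follow take the labels as given, and every one of them, for members, GTPases and macrophage markers alike, would turn if the arrays were exchanged. Beside 5.15% over all genes measured, 24 of the 24 macrophage markers in a list were called higher on the array labelled Col1-Dlk1. Their summed intensity was 28573, compared with 487 on that labelled wild type. None of them read exactly 0, and 2 reached the level threshold on the array labelled wild type. Macrophages themselves express many interferon-stimulated genes, and the part of these cells in the differences below was not tested. In such bulk RNA, fewer cells of a type and less RNA per cell cannot be told apart. Of 13 measured markers of T and natural killer lymphocytes, cells that make interferon gamma, none reached the level threshold on either array. Of 7 measured plasmacytoid dendritic cell markers only Tcf4, a gene of many tissues, did, at 103 against 214 (here and below, the array labelled Col1-Dlk1 comes first). Of 10 measured endothelial markers, 2 reached it. Eng (139 against 26.9, 1.99) was called higher, and Egfl7 (26.6 against 58.1, -0.88) lay within 2-fold. For the labelled cell type, the matrix genes Col1a1 (1772 against 1462), Col1a2 (6261 against 7071) and Sparc (7535 against 4818) lay far above the level threshold on both arrays, whereas Postn read 609 against 4232. Of the more specific osteoblast genes, Sp7, Alpl, Ibsp, Phex, Dmp1 and Pth1r lay below the level threshold on both. The other 4 listed osteoblast markers, Runx2, Bglap, Bglap2 and Spp1, had no single-gene probe set and were not measured.

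Of the 40 measured members, 8 were called lower and 2 higher on the array labelled Col1-Dlk1, while 20 lay within 2-fold and 10 did not reach the level threshold on either array and so had no call. Of the called members only Iigp1 had more than 1 probe set, so the other calls had no repeat measurement. The called share was 20.0% lower and 5.00% higher, where all 12393 genes measured gave 3.90% lower and 5.15% higher. With the labels turned, the same values read as 20.0% higher and 5.00% lower, beside 3.90% higher and 5.15% lower over all genes. The 30 members that passed the level threshold were 75.0% of those measured, against 54.8% of all genes, for which the shares among level-passing genes were 7.11% lower and 9.39% higher. The median difference of the 40 members was -0.26, beside 0.01 over all genes, and 24 of the 40 lay below 0. At 1.5-fold, 15 were lower and 4 higher, where all genes gave 9.31% and 10.5%, and at 3-fold 4 were lower and 1 higher, where all genes gave 1.65% and 2.64%. Members were chosen for this description with earlier results of these arrays known. By group, the median was -1.36 for the GTPases, -0.14 for the effectors and sensors, and 0.11 for the receptors and signalling factors.

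**Figure D1:**
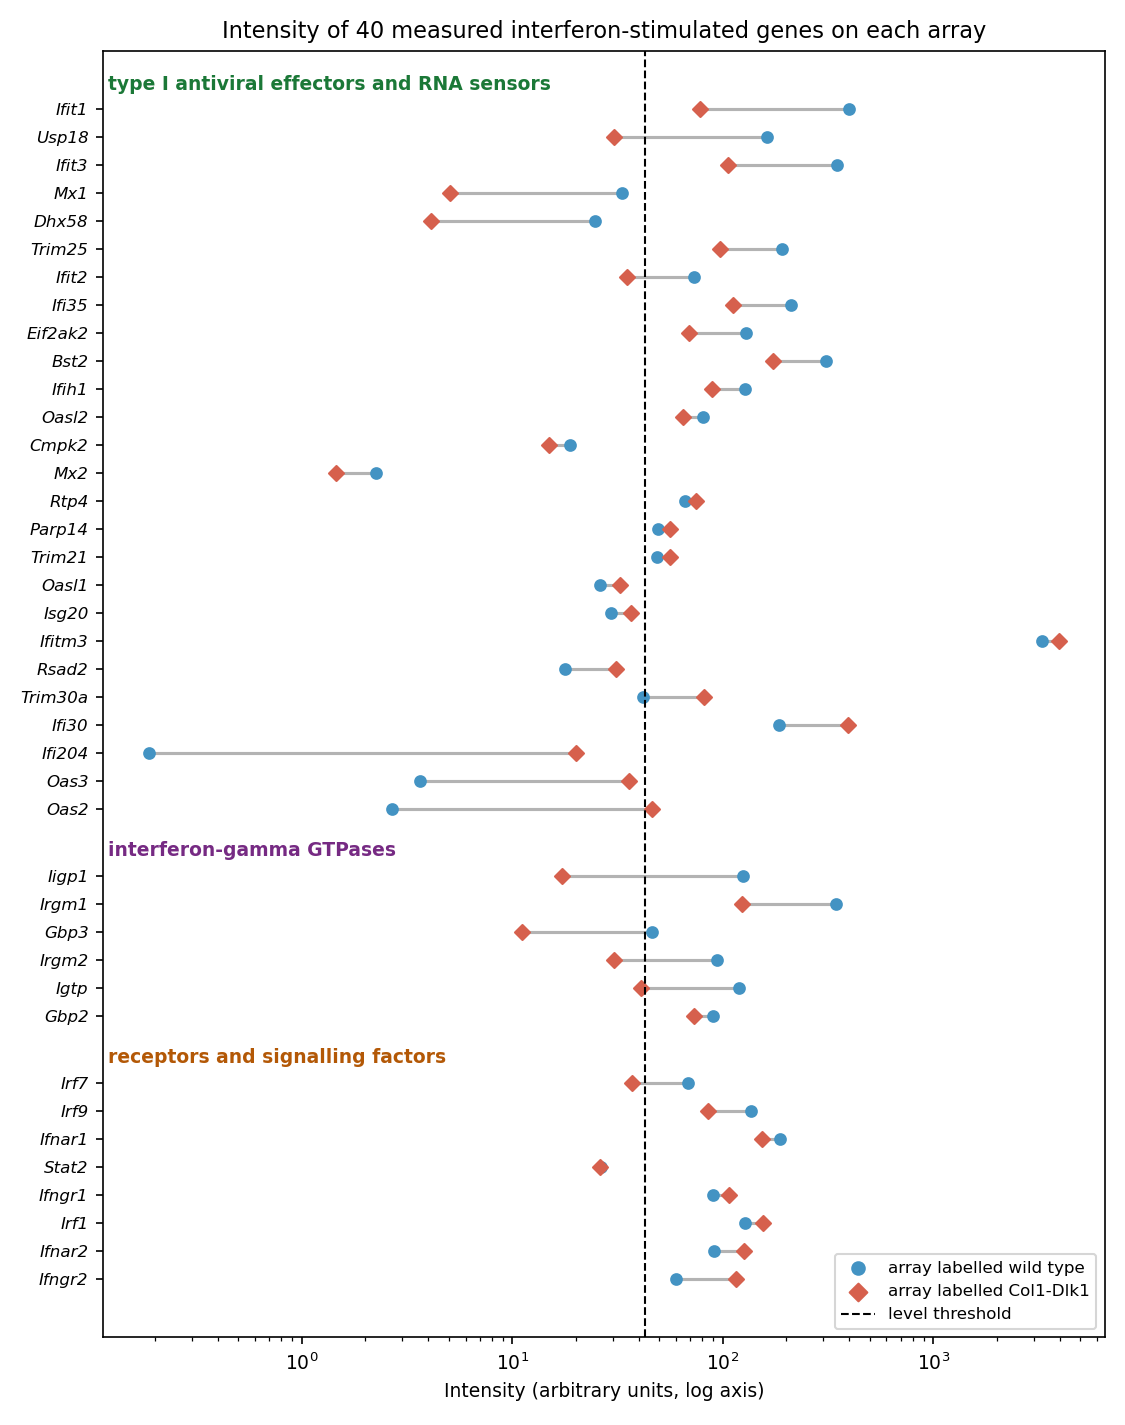
Intensity of each of the 40 measured members on the array labelled wild type (circles) and the array labelled Col1-Dlk1 (diamonds), on a log axis in arbitrary units, by group and ordered by the log2 difference; the dashed line is the level threshold of 42.8. All 6 GTPases have the diamond to the left of the circle, whereas the effectors and the signalling factors lie in both directions.

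Of the 3 groups, the GTPases had the most negative median and the only one-sided set of differences. On the array labelled Col1-Dlk1 all 6 measured members were lower, and 5 of the 6 passed the rule for a call. With a pseudocount at the median of all values 2 did, and at 3-fold 1 did. Over all genes, 483 were called lower in the main setting, 287 with that pseudocount and 204 at 3-fold. The intensities of the 6 GTPases ranged from 45.9 to 345 on the array labelled wild type, all above the level threshold, and from 11.1 to 124 on the array labelled Col1-Dlk1, where 2 reached it.

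Iigp1, an immunity-related GTPase that coats the vacuole of Toxoplasma, had the most negative difference of any member. It had an intensity of 17.2 on the array labelled Col1-Dlk1, compared with 124 on that labelled wild type, a log2 change between arrays of -2.26 or 4.79-fold lower. Its probe sets gave -2.64 (27.7 against 229) and -1.88 (9.61 against 65.0), so both were past 2-fold. Irgm1, a regulator of the other immunity-related GTPases and of autophagy, read 124 against 345 (-1.40). Igtp, also known as Irgm3, read 40.8 against 120 (-1.34), and Irgm2 read 30.4 against 94.4 (-1.35). The 4 measured immunity-related GTPases of the list thus lay past 2-fold in the same direction. Ifi47, a GTPase of the same family that stands in the list of other interferon-induced genes, read 63.8 against 76.4 (-0.22) and was within 2-fold. With a pseudocount at the median of all values, Igtp (-0.96) and Irgm2 (-0.91) also fell within 2-fold, and Ifit1 (-1.87) was more negative than Iigp1 (-1.50). Igtp and Irgm2 are neighbours on chromosome 11 with no protein-coding gene between them in the RefSeq gene table, and their differences were nearly equal. Irgm1 lies on the same chromosome, apart from that pair. The guanylate-binding proteins were less alike. Gbp3 read 11.1 against 45.9 (-1.37), the second value lying just past the level threshold, and its call ended with the larger pseudocount (-0.72) and with a level at the 60th percentile. Gbp2 read 73.1 against 89.6 (-0.26), and its probe sets disagreed, with -0.61 for one and 0.09 for the other. Gbp2 and Gbp3 lie close together on chromosome 3, with 1 protein-coding gene between them.

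Tgtp1, the 7th listed GTPase, had no probe set of its own. A probe set shared with its near-identical copy Tgtp2 read 30.7 against 138, a log2 change between arrays of -1.84. This is the direction of the other GTPases, although the signal of the copies cannot be separated.

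Promoters of 5 of these GTPases are shown because the genes were lower together, and to set the 3 that hold both interferon elements beside 2 that hold only the ISRE core. Gbp2, which lay within 2-fold, also holds an ISRE core and no GAS and is not shown. Each sequence gives the 160 bases before the annotated start, 5′ to 3′ on the gene's strand, from RefSeq (GRCm38.p6), with matches to the ISRE core (GAAA, any 2 bases, GAAA, searched on both strands, so that it reads TTTC, any 2 bases, TTTC on the other) and to the GAS (TTCNNNGAA, which reads the same on both strands) in capitals. The windows lie at chr11:58199396-58199555 (+ strand) for Igtp, chr11:58214817-58214976 (+ strand) for Irgm2, chr11:48992247-48992406 (- strand) for Tgtp1, chr11:48871421-48871580 (- strand) for Irgm1 and chr3:142559884-142560043 (+ strand) for Gbp3.
Igtp: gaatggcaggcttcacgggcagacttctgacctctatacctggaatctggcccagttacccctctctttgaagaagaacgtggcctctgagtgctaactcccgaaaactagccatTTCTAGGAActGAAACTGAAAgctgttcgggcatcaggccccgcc
Irgm2: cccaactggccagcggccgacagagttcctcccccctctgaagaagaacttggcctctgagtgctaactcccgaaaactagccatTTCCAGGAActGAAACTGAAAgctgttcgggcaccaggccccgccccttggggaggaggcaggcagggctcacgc
Tgtp1: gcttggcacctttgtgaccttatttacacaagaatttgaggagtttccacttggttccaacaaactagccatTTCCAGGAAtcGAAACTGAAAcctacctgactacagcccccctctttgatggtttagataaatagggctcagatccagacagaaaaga
Irgm1: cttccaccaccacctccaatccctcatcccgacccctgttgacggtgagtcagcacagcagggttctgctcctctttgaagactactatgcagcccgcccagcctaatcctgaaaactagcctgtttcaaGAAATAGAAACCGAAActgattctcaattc
Gbp3: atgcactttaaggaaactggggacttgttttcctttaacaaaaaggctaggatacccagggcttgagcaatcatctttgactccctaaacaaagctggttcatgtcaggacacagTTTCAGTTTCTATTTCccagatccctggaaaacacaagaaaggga
In Igtp, Irgm2 and Tgtp1 a GAS begins exactly 11 bases before an ISRE core, and the ISRE core has the same letters in all 3 genes, GAAACTGAAA. The pair begins 45 bases before the start in Igtp, 75 in Irgm2 and 88 in Tgtp1. Irgm1 and Gbp3 hold a pair of overlapping ISRE cores near the start and no GAS. This spacing was searched for after it was seen; over all 32851 promoter windows of 300 bases (250 before and 50 after the start), 149 hold both motifs and 5 hold them with that spacing.

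Promoter entries were matched by symbol for 35 of the 44 members, the others being Iigp1, Rtp4, Dhx58, Usp18, Mx1, Ifi204, Parp14, Oas2 and Mx2. An ISRE core lay in at least 1 window of 18 of these 35 genes, a GAS in 12 and both in 6. Over all 27025 genes with an entry these shares were 3.99%, 9.55% and 0.54%, and over all windows 3.44%, 8.30% and 0.45%. The 6 with both are Igtp, Irgm2, Tgtp1, Bst2, Ifitm3 and Eif2ak2, of which Bst2, Ifitm3 and Eif2ak2 lay within 2-fold between the arrays. In Bst2 and Ifitm3 a GAS overlaps an ISRE core. By group, an ISRE core was found for 6 of 6 GTPases, 11 of 21 effectors and sensors, and 1 of 8 receptors and signalling factors. All 6 members called lower that have an entry held an ISRE core, and so did 7 of the 18 that lay within 2-fold and 3 of the 6 below the level threshold. Ifi30, the 1 member called higher with an entry, held no ISRE core and no GAS. A match describes the letters only.

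Of the 26 effectors and sensors, 3 (11.5%) were called lower and 2 (7.69%) higher. All genes gave 3.90% lower and 5.15% higher. The 3 called lower on the array labelled Col1-Dlk1 were Ifit1, Ifit3 and Usp18. The IFIT proteins bind foreign RNA and stop its translation. Ifit1, which recognises the cap of viral messages, had an intensity of 78.1 on the array labelled Col1-Dlk1, compared with 399 on that labelled wild type, a log2 change between arrays of -2.20 (4.60-fold lower). Ifit3, a partner that stabilises IFIT1, read 106 against 350 (-1.62, 3.08-fold lower). Ifit2 had the same direction with 35.3 against 73.1 (-0.86), and was within 2-fold. These 3 genes lie in 1 cluster on chromosome 19, Ifit2 directly beside Ifit3.

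Usp18, the protease that removes ISG15 from proteins and dampens the type I receptor, read 30.6 against 162 (-2.06, 4.17-fold lower). Isg15, the ubiquitin-like modifier itself, was measured only through a probe set shared with Gm9706. That probe set read 64.5 against 382, which is a ratio of 5.92 without the pseudocount. The log2 difference with the pseudocount was -2.38. With the shared probe sets of Isg15 and Tgtp1 added, a choice made after seeing the data, 10 of 42 members were called lower and 2 higher. Of all 12395 genes then measured, 485 were lower and 638 higher. Trim25, a ubiquitin ligase that is also an enzyme of ISG15 conjugation and an activator of RIG-I, read 97.1 against 192 (-0.91) and was within 2-fold. Its 3 probe sets all lay below 0, from -1.26 to -0.58. Other enzymes of ISG15 conjugation, outside the list of members, had the opposite direction. Uba7, which activates ISG15, read 49.7 against 27.8 (0.65) and was within 2-fold. Ube2l6, which carries it to the ligases, read 18.6 against 8.60 (0.59), below the level threshold on both arrays.

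The promoters of Ifit1, Ifit3 and Isg15 are printed in the same way, since these genes had some of the largest differences among the effectors. Their windows lie at chr19:34640729-34640888 (+ strand), chr19:34583369-34583528 (+ strand) and chr4:156200819-156200978 (- strand). Oas3, at chr5:120777660-120777819 (- strand), which differed in the opposite direction, is set beside them.
Ifit1: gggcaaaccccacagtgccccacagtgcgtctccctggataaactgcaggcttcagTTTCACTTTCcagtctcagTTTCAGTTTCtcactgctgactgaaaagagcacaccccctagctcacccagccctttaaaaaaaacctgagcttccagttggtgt
Ifit3: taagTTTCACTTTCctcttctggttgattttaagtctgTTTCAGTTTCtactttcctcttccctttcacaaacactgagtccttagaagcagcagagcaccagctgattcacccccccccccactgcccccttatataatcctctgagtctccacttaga
Isg15: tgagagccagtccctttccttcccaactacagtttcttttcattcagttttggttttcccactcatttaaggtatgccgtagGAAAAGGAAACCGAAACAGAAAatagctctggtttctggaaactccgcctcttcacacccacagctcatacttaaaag
Oas3: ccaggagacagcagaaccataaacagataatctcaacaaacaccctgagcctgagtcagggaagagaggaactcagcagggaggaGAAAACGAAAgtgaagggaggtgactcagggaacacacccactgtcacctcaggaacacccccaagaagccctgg
Ifit1 and Ifit3 each hold an ISRE core spelled TTTCACTTTC followed by one spelled TTTCAGTTTC, starting 104 and 85 bases before the start in Ifit1 and 156 and 122 in Ifit3. Isg15 holds 3 overlapping ISRE cores, the first of which starts 78 bases before the start. An ISRE core also stands 75 bases before the start of Oas3, so its presence was not limited to members that were lower. Oas3 had no call, as both its values lay below the level threshold.

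**Figure D2:**
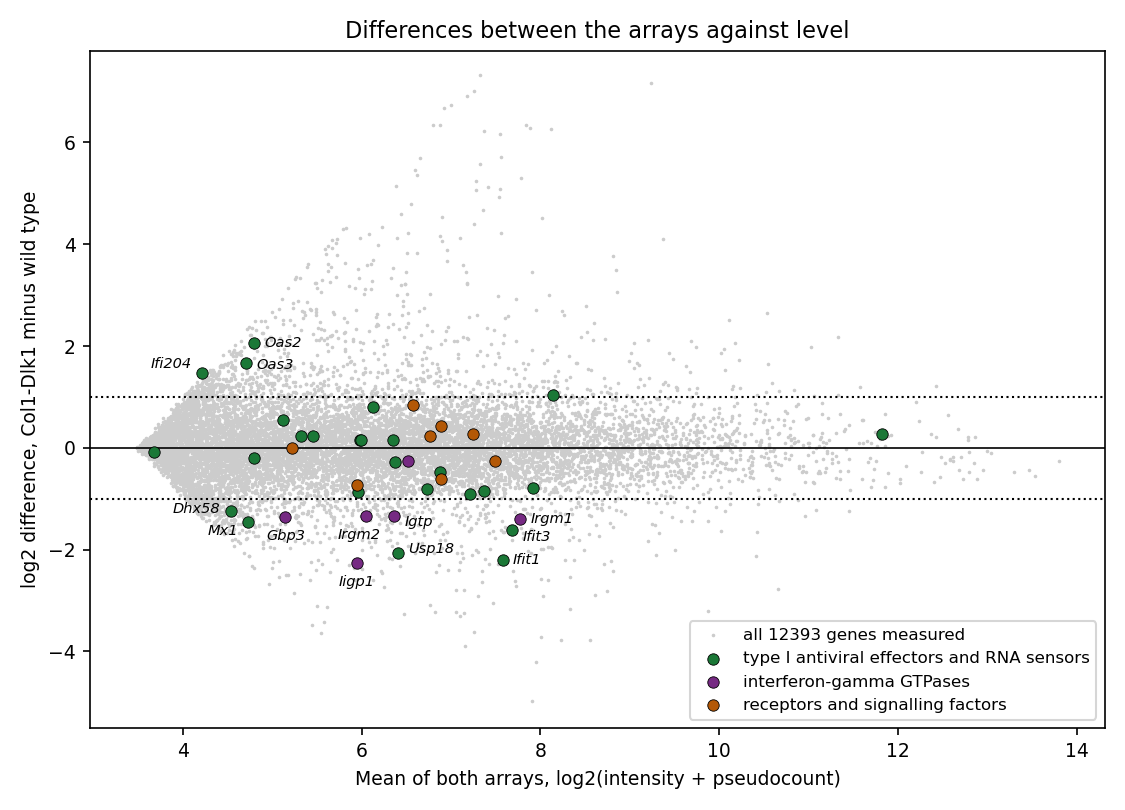
Log2 difference (array labelled Col1-Dlk1 minus array labelled wild type) against the mean log2(intensity + pseudocount) of both arrays, for all 12393 genes (grey) and the 40 members by group (colours); dotted lines mark 2-fold. Ifit1, Ifit3, Usp18, Iigp1, Irgm1, Igtp and Irgm2 lie below -1 at medium level, and Gbp3, Mx1 and Dhx58 lie below -1 at lower levels. Oas2, Oas3 and Ifi204 lie above 1 at the dim edge, and Ifi30 lies above 1 at medium level.

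The 2′-5′ oligoadenylate synthetase family, which makes the messenger that activates RNase L, is covered by listed members near or below the level threshold and by Oas1a, a gene outside the list. Oas1a read 159 against 85.9 (0.81), above the level threshold on both arrays and within 2-fold. Oas2 had an intensity of 46.0 on the array labelled Col1-Dlk1, compared with 2.68 on that labelled wild type, a log2 change between arrays of 2.06, and was called higher. Oas3, its direct neighbour on chromosome 5, read 35.7 against 3.66 (1.68), below the level threshold on both arrays. The difference of Oas2 depends on the pseudocount, being 3.67 with a pseudocount of 1 and 0.97 with one at the median of all values. Oas2 passed the level threshold by a small margin. Of the OAS-like relatives, Oasl2 read 64.5 against 80.8 (-0.28) and Oasl1 read 32.5 against 26.1 (0.23). Ifi204, a DNA-binding protein of the interferon-inducible p200 family known from myeloid cells, read 20.1 against 0.19, both below the level threshold. A second probe set that names Ifi204 together with Mndal, Ifi211 and Ifi205 read 41.6 against 54.8, in the opposite direction.

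Ifi30 was the other member called higher. It encodes a lysosomal thiol reductase of antigen-presenting cells that is induced by interferon gamma, and had an intensity of 394 on the array labelled Col1-Dlk1, compared with 186 on that labelled wild type (1.04). This is 2.06-fold, so close to the 2-fold rule that centring each array on its median took it to the other side (0.98 log2 units). Trim30a, a ubiquitin ligase that limits innate signalling, read 81.8 against 41.9 (0.81), with its probe sets at 1.21 and 0.41. A probe set shared by Trim30a and Trim30d had the same direction at 33.2 against 18.8.

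A further 4 effectors and sensors lay within 2-fold, with the lower value on the array labelled Col1-Dlk1. Bst2, the tetherin that holds budding virions on the cell surface, read 173 against 309 (-0.80). Eif2ak2, the RNA-activated kinase PKR that halts translation, read 69.2 against 130 (-0.81), and its probe sets gave -0.93 and -0.69. Ifi35, a protein that partners NMI, read 113 against 211 (-0.84). Ifih1, the sensor MDA5 of long double-stranded RNA, read 88.7 against 128 (-0.48). These 4 differences are close to the median gap between probe sets of a member. Dhx58, the related helicase LGP2, was lower by all 3 of its probe sets, from -1.48 to -0.83, but its mean of 4.12 against 24.7 lay below the level threshold.

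Ifitm3, which blocks the fusion of viruses in endosomes, had high signal on both arrays, with 3970 on the array labelled Col1-Dlk1, compared with 3296 on that labelled wild type (0.27). Trim21, the antibody-binding ubiquitin ligase (56.0 against 48.8), and Parp14, an ADP-ribosyltransferase (56.4 against 49.4), differed by 0.16 each. Rtp4, a chaperone of receptors with antiviral activity, averaged 0.15 from probe sets that disagreed. One read 285 against 438 (-0.60) and the other 14.0 against 2.41 (0.90).

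The other effectors were too dim to call. Mx1 and Mx2, dynamin-like GTPases that trap viral components and are defective in many laboratory mouse strains, read 5.09 against 33.2 and 1.46 against 2.26. Rsad2, the antiviral enzyme viperin, averaged 31.0 against 17.9 from 3 probe sets that ranged from -0.27 to 1.24. Cmpk2, a mitochondrial nucleotide kinase next to Rsad2 on chromosome 12, read 14.9 against 18.7, and the exonuclease gene Isg20 read 36.9 against 29.5. Ifi44 and Xaf1 were not analysed here, having no single-gene probe set.

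**Figure D3:**
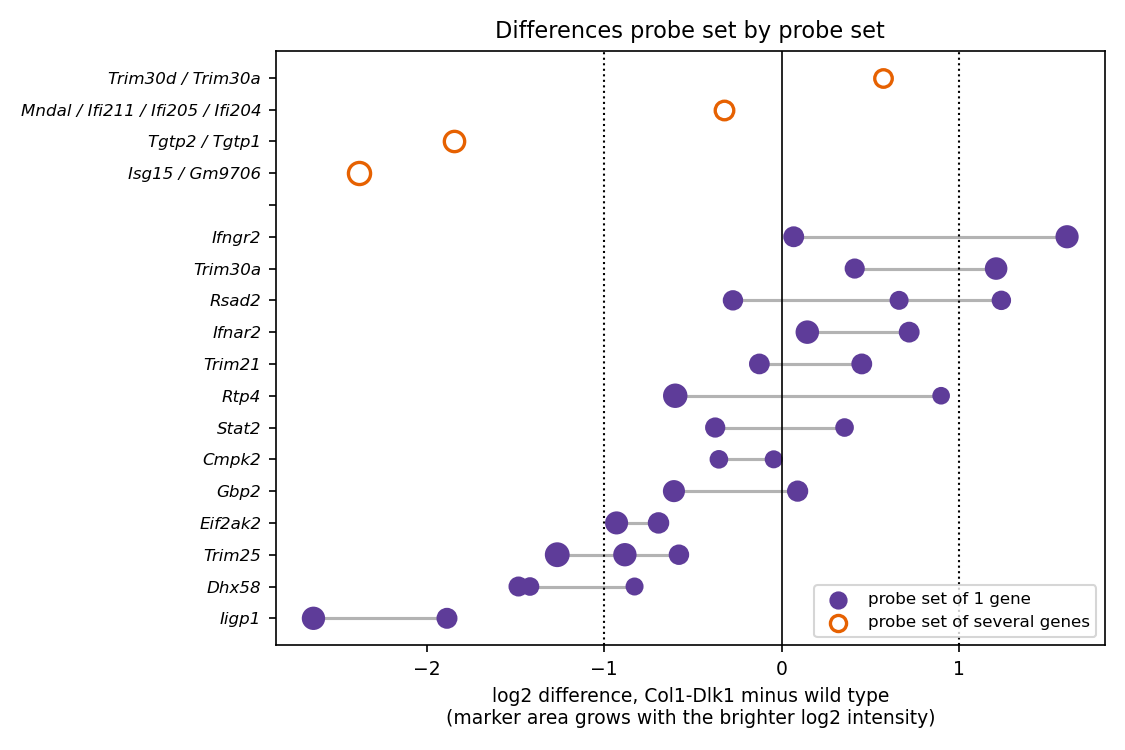
Log2 difference of each probe set for the 13 members with several probe sets (filled) and for the 4 probe sets that name a member together with other genes (open); marker area grows with the brighter log2 intensity and dotted lines mark 2-fold. All probe sets of Iigp1, Dhx58, Trim25 and Eif2ak2 lie below 0, while those of Rsad2, Rtp4, Gbp2, Trim21 and Stat2 lie on both sides of 0.

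None of the 8 receptors and signalling factors was called, where all genes gave 3.90% lower and 5.15% higher. With so few genes, an absence of calls is near those shares. In 8 of the 13 members with several probe sets all probe sets had the same direction, and Stat2 was among the 5 that were mixed. Ifnar1, a chain of the type I receptor, had an intensity of 154 on the array labelled Col1-Dlk1, compared with 187 on that labelled wild type (-0.26), and Ifnar2, the other chain, read 127 against 90.9 (0.43). Ifngr1, the ligand-binding chain of the interferon gamma receptor, read 107 against 89.7 (0.23). Its signalling partner Ifngr2, directly beside Ifnar1 on chromosome 16, read 116 against 60.2 (0.84). The Ifngr2 probe sets disagreed in size, one reading 211 against 61.9 (1.61) and the other 61.8 against 58.5 (0.07). The receptor genes were thus present at 60.2 to 187 on both arrays, above the level threshold.

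Of the transcription factors, Irf7, the amplifier of type I interferon production, read 37.1 against 68.2 (-0.72), and Irf9, the DNA-binding part of the type I complex, read 85.1 against 136 (-0.61). Irf1, the primary target of the gamma pathway, had the opposite direction with 155 against 127 (0.26). Stat2 averaged 26.2 against 26.4, below the level threshold, with its probe sets at 0.35 and -0.37. The Irf1 promoter at chr11:53769854-53770013 (+ strand) is printed as an example of a member with a GAS and no ISRE core.
Irf1: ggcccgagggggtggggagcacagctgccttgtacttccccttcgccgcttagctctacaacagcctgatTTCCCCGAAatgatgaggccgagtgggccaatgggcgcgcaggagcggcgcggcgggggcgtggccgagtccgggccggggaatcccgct
The GAS of Irf1, TTCCCCGAA, begins 90 bases before the start.

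The layers around the members were examined with 4 further lists. Of the interferons themselves, 9 had a probe set of their own and none reached the level threshold. Ifnb1 read 1.69 against 5.71 and Ifng 10.6 against 1.67, and the largest value was 26.9, for Ifna4 on the array labelled wild type. Among 17 measured kinases, STATs, IRFs and inhibitors, 4 (23.5%) were called higher and none lower, where all genes gave 5.15% higher and 3.90% lower. The 4 called higher were Irf8, a factor of myeloid cells (87.6 against 5.86, 2.55), Ptpn6, the phosphatase SHP-1 of blood cells (139 against 19.6, 2.30), Socs3, an inhibitor of cytokine receptors (275 against 110, 1.25), and the kinase gene Jak1 (545 against 256, 1.06). The macrophage markers differ in the same direction. Socs1, the inhibitor of interferon gamma signalling, read 1.79 against 25.4, below the level threshold.

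Among 12 measured genes of nucleic acid sensing, 6 passed the level threshold and none was called, the largest differences among these 6 being those of the adaptors Sting1 (123 against 68.3, 0.76) and Mavs (60.4 against 35.7, 0.61). The 42 other interferon-induced genes that were measured gave 2 lower (4.76%) and 1 higher (2.38%), with a median of 0.09. Helz2, a helicase (32.7 against 111, -1.49), and Slfn8, of the Schlafen family (22.9 against 62.7, -1.12), were the lower ones, and Ifi27l2a (513 against 188, 1.39) the higher one. Ifitm1 read 71.5 against 31.0 (0.98). The shares over all genes were 3.90% lower and 5.15% higher.

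**Figure D4:**
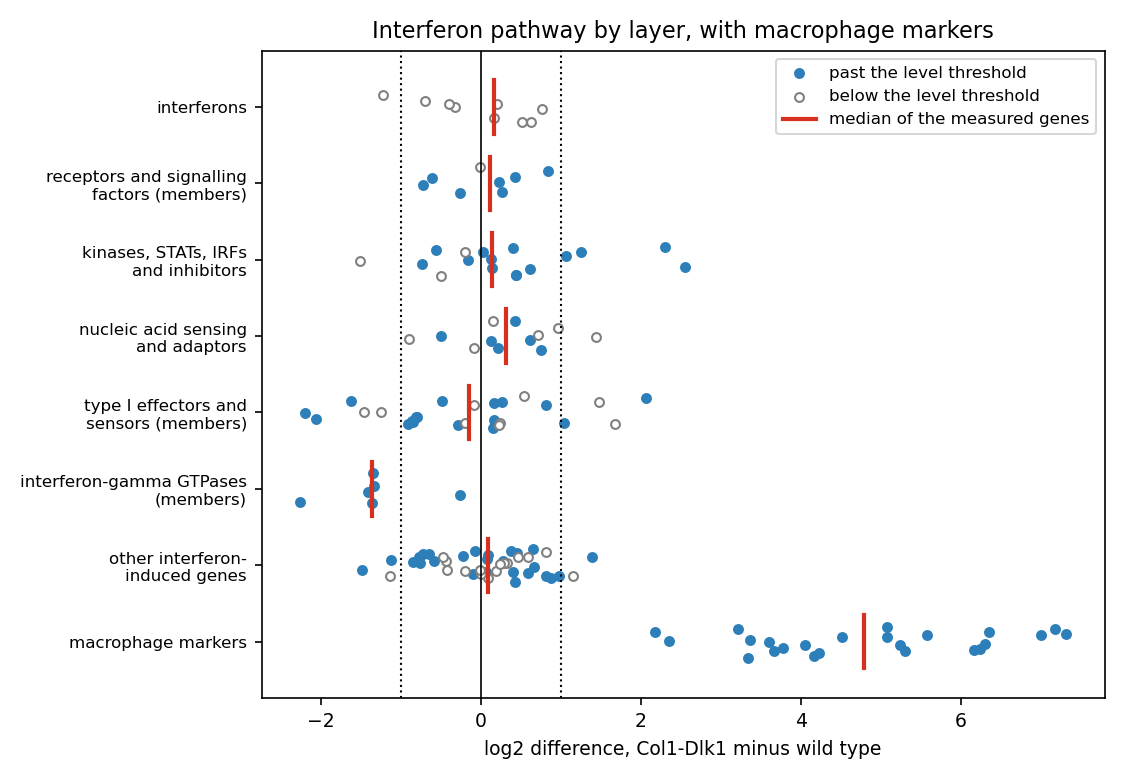
Log2 difference (array labelled Col1-Dlk1 minus array labelled wild type) of the measured genes in each layer of the interferon pathway and of the macrophage markers; filled points passed the level threshold, open points did not, red bars are medians and dotted lines mark 2-fold. The GTPases have a median of -1.36, the other interferon lists have medians from -0.14 to 0.32, and the macrophage markers have one of 4.79.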

How the data were processed

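RNA of 2 samples, 1 array of 3 combined cultures per genotype, was measured on Affymetrix mouse arrays. The version of the array named by the submitters' design text is another than that of the platform annotation used here; genes were assigned by matching probe-set identifiers, and which version was hybridised was not settled. The authors deposited a linear intensity per probe set, and the submitters' processing notes name Affymetrix Expression Console 1.1.1. Which algorithm, background correction and scaling target it ran with is not given in the sources used. The mean after trimming 2% at each end was 150 on both arrays. The table holds 22690 probe sets, of which 64 are controls, 20380 name 1 gene, 691 several and 1555 none in the platform annotation; symbols were updated by gene ID from RefSeq (20351 of 20380 matched).

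Computed from these were log2(intensity + 10.96), the mean per gene, differences and calls. Groups followed the genotype label. No test was possible with 1 array per genotype, and the number of arrays limits the precision. The steps were tested on simulated data. The members, the lists and their thresholds were chosen with earlier results of these data known. All members are described. The macrophage markers are given by counts and sums only. Of the other lists, up to 4 level-passing genes with the largest differences are named, and others named were chosen after their values were seen. Ifna4, Ifnb1, Ifng, Socs1 and the dim osteoblast genes are such. Alternatives changed the scaling (median centring, quantile, loess with a span of 0.3), pseudocount, level, fold and probe sets. Versions were matplotlib 3.10.9, statsmodels 0.14.6, scipy 1.17.1, pandas 2.3.3 and numpy 2.4.6, under Python 3.11.15.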

Additional observations from a re-analysis of the deposited data

How the results depend on the processing

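No paired analysis was possible because only 1 array exists per genotype, which also leaves no replicate to omit. Under 12 alternatives, Ifit1, Ifit3, Usp18 and Iigp1 were called lower each time, no called member changed direction, and no member changed sign with the scaling. Rsad2, Trim21, Rtp4 and Stat2, which had no call of higher or lower in the main setting, changed sign with the pseudocount or the choice of probe sets.

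The main counts of 8 lower and 2 higher became 15 and 4 at 1.5-fold (9.31% and 10.5% of all genes) and 4 and 1 at 3-fold (1.65% and 2.64%). At 1.5-fold, 8 effectors and sensors and 2 signalling factors were lower and 1 signalling factor, Ifngr2, was higher. At 3-fold 1 GTPase remained lower, Iigp1, and 1 effector higher, Oas2. Over all 12393 genes, the main setting gave 483 lower and 638 higher. With a pseudocount at the median of all values, 5 members were lower, 2 of them GTPases, and none was higher (0 members, 0 effectors). The GTPase median was then -0.93, and all genes gave 287 lower and 417 higher. Median centring left 1 member higher, an effector (Oas2), and a level at the 60th percentile also left 1, likewise an effector (Ifi30). Over all genes, 575 and 511 were higher in these 2 settings. Without the level filter, 4 members were higher, all 4 effectors, and 5 effectors were lower, while all genes gave 944 higher and 772 lower. With the brightest probe set of each gene, 4 members were higher, 1 of them a signalling factor (Ifngr2), while all genes gave 733 higher and 604 lower. The other alternatives kept each count within 1.5 times its main value. The pooling of cultures leaves the spread between them unknown.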
